A study of Mus musculus with 18 samples.

Results

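The import receptors of the importin-β family carry proteins from the cytoplasm into the nucleus, and 10 of their genes (Kpnb1, Ipo4, Ipo5, Ipo7, Ipo8, Ipo9, Ipo11, Ipo13, Tnpo1 and Tnpo3) were followed here in mouse NIH/3T3 fibroblasts, an established line of embryonic origin, with and without Exportin 4. They were chosen by name, with earlier results of these data known, and make up 10 of the 55401 genes in the mRNA count tables. Their exons also gave rise to 57 of the 16171 circular RNAs (circRNAs) listed by circRNA-seq. The question was whether these genes, as mRNA and as circRNA, differed between wild-type (WT) cells and cells in which the exportin gene XPO4 was knocked out (KO).

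WT cells were unedited NIH/3T3, and KO cells were NIH/3T3 with both XPO4 copies edited in an identical way by CRISPR-Cas9. mRNA-seq gave 3 libraries titled KO and 3 titled WT. RNase R-treated circRNA-seq, in which linear RNA is digested before library construction, gave 2 libraries per genotype of nuclear (Nuc), cytoplasmic (Cyto) and whole-cell RNA. Nothing in the labels says that replicates came from separate cultures, so p-values measure the spread between these libraries, which may be technical. The KO cells are described as a single line, so an effect of XPO4 and a difference between the lines cannot be told apart.

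Importins and exportins share a solenoid built of HEAT repeats and bind the GTPase Ran. An import receptor takes up cargo in the cytoplasm, passes the nuclear pore, and lets the cargo go when RanGTP binds it in the nucleus, whereas an exportin such as Exportin 4 picks up cargo together with RanGTP and releases it in the cytoplasm. A circRNA forms when a downstream splice donor is joined back to an upstream splice acceptor, and the joined sequence, absent from the linear mRNA, is what the circRNA reads were counted on.

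All 57 circRNAs joined annotated exon edges, with AG before the acceptor and GT after the donor in the GRCm38 genome, and 55 of them lay within the coding sequence. The junctions of the most read circRNA of each gene are given 5′ to 3′ from GRCm38, with the last 15 bases of the donor exon in lower case and the first 15 bases of the acceptor exon in capitals, because these bases identify each circRNA that the read counts below refer to.
Ipo7 exons 2 to 4: tgtgaaaaattatgaGCACACAAGTCTCTG
Tnpo3 exons 2 to 4: gtggtatctttattgGTTCACGCTTGGGAG
Ipo11 exons 3 to 4: aagctattctatgatTGCTCTCTCAGAAGA
Ipo8 exons 2 to 3: tccagatttggtgagTCCTACAAGATTATT
Ipo9 exons 2 to 4: tgcgtgtgttgacagAATTTGGTGTTCACC
Kpnb1 exons 3 to 10: ccattagtcatacagCCCACGTTCCTTGTG
Ipo5 exons 4 to 6: cctggattcttacagATGAGGACGGCAACA

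The junctions of 6 circRNAs called between genotypes or fractions below are written in the same way, followed by that of Ipo8 exons 2 to 5, which was not called and is shown beside its Ipo7 counterpart. The Tnpo3 junction of exons 2 to 3 has the acceptor of the Tnpo3 junction above, and the Ipo7 circRNAs of exons 2 to 5 and 3 to 5 share a donor.
Ipo11 exons 25 to 28: aagaacttacaaagaGTTGTGGAAAATGCC
Ipo11 exons 2 to 5: aagctattctatgatACTTCCATGGATCTC
Tnpo3 exons 8 to 11: atccccagttcctggGTAGTAGAAATTTCC
Tnpo3 exons 2 to 3: aacattggtagaaaaGTTCACGCTTGGGAG
Ipo7 exons 2 to 5: tatgctcttgttcagGCACACAAGTCTCTG
Ipo7 exons 3 to 5: tatgctcttgttcagGTGTTATTTATTTAA
Ipo8 exons 2 to 5: tatgctctcgttcagTCCTACAAGATTATT

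Library depth limited the circRNA comparisons most in the nucleus. The mRNA-seq libraries held 16974062 to 22057323 counted fragments, the cytoplasmic circRNA libraries 50629 to 81941 back-splice reads, the whole-cell ones 50341 to 58165 and the nuclear ones 2189 to 4383. All 10 fibroblast markers were expressed above 1 FPKM and summed to between 2665 and 2841 FPKM per library. The extraction text shared by all samples names peripheral blood, but none of 7 blood markers reached 1 FPKM, with Hbb-bs and Cd3e at 0 counts in every library and a summed level of 1 to 1.15 FPKM in the libraries titled KO and 0.327 to 0.411 in those titled WT. The library titled KO replicate 2 stood apart from the other libraries titled KO, with a chi-square per gene of 9.74 and 11.3 against them, where the other pairs of mRNA libraries of a genotype gave 2.92 to 4.65.

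A conflict in the labels bears on every mRNA direction. The column heading inside each mRNA file named the opposite genotype to the sample title, and the titles were followed. Xpo4 itself did not settle the matter. Its FPKM was 3.72, 2.62 and 3.77 in the libraries titled KO and 3.08, 2.93 and 2.89 in those titled WT, so the groups overlapped. The log2 fold change was 0.18 (SE 0.11, edgeR quasi-likelihood test, Benjamini-Hochberg adjusted p = 0.193), and without the library titled KO replicate 2 it was 0.34 (adjusted p = 0.000252). If the headings were right, each mRNA direction below would be turned. The circRNA files carried no such heading.

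The import receptors covered a wide range of mRNA levels. Levels are given in FPKM, fragments scaled by exonic length and by the fragments counted in the library. The length covered all annotated exons of a gene (15793 nt for Ipo8, 6590 nt for Kpnb1), whether used in these cells or not. The order of genes and the ratio below depend on that length. The place of Ipo4 is uncertain, since 55.3% of its exonic bases lay also in another gene. In the libraries titled WT, Kpnb1, which carries cargo on its own or through the importin-α adaptors, was highest at 106 ± 1.31 FPKM (SD, n = 3), and Ipo8, known for importing Smad and Argonaute proteins, was lowest at 6.54 ± 0.288 FPKM. The ratio of Kpnb1 to Ipo8 in the libraries titled WT was 16.2 ± 0.524 (SD, n = 3). Between these ends stood Ipo5 (68.8 FPKM), Ipo9 (38), Ipo13 (30.5), Tnpo1 (23.5), Ipo7 (18), Ipo4 (12.8), Tnpo3 (12.4) and Ipo11 (7.71). Each neighbouring pair in this order was separated in all 3 libraries, apart from Ipo4 and Tnpo3, whose values overlapped. In the libraries titled KO the order was the same except that Ipo13 stood above Ipo9, and the neighbours Ipo5 and Ipo13, Tnpo1 and Ipo7, and Ipo11 and Ipo8 overlapped there.

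**Figure D1:**
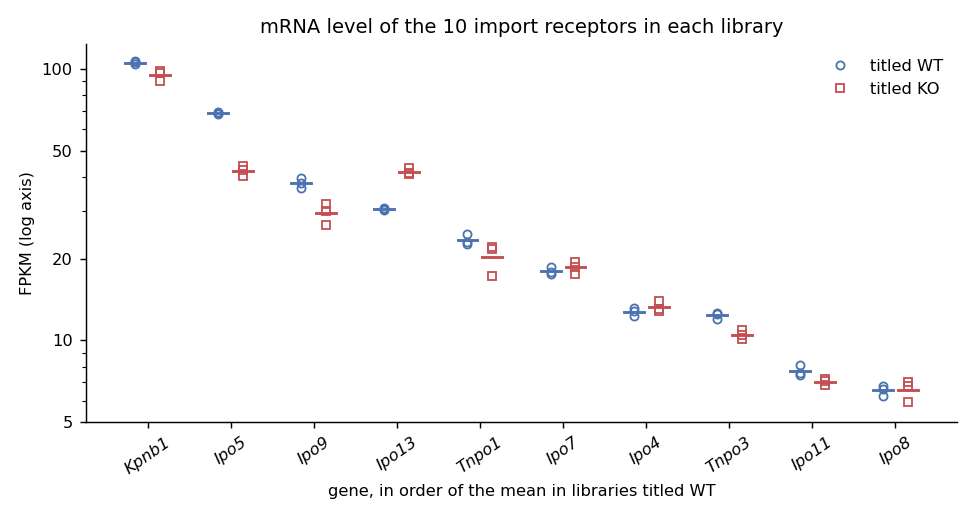
FPKM (log axis) of the 10 import receptor genes in the 6 mRNA-seq libraries, ordered by the mean in the libraries titled WT, with each library as an open symbol and the group mean as a line. The libraries titled KO lay below those titled WT for Ipo5 (40.4 to 43.8 against 68 to 69.7 FPKM) and above them for Ipo13 (40.9 to 43.1 against 30.3 to 30.8 FPKM).

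Between the libraries titled KO and those titled WT, 5 import receptors were lower (Ipo5, Ipo9, Tnpo3, Tnpo1 and Kpnb1), 1 was higher (Ipo13), and Ipo4, Ipo7, Ipo8 and Ipo11 did not pass the test. The changes were small, from 1.63-fold lower for Ipo5 to 1.37-fold higher for Ipo13. Across all 14688 genes tested, 48.7% were called (adjusted p under 0.05), 25.1% higher and 23.6% lower in the libraries titled KO, so the 6 of 10 called members were close to that background. The median log2 fold change was -0.15 over the 10 members and -0.00 over all genes tested. In bulk RNA, fewer cells expressing a gene and less RNA per cell cannot be told apart.

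Ipo5 imports ribosomal proteins and histones and lies on chromosome 14 (120911224 to 120947999, plus strand). Its FPKM was 43.8, 40.4 and 42.5 in the libraries titled KO and 68, 69.7 and 68.9 in those titled WT. Every library titled KO was far below every library titled WT. Its log2 fold change was -0.71 (SE 0.0519, edgeR adjusted p = 1.44e-07), and it stayed between -0.72 and -0.68 when each library was left out in turn.

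Ipo13 works in both directions, importing the SUMO-conjugating enzyme UBC9 and exporting eIF1A, and lies on chromosome 4 (117894486 to 117914999, minus strand). It had 43.1, 41.5 and 40.9 FPKM in the libraries titled KO against 30.3, 30.8 and 30.4 in those titled WT. The groups did not overlap, which held for 57.8% of all genes tested. Its log2 fold change of 0.46 (SE 0.0523, edgeR adjusted p = 1.02e-05) was the only increase called among the 10 genes.

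Ipo9 brings histone H2A-H2B dimers to the nucleus and lies on chromosome 1 (135382312 to 135430499, minus strand). Its level was 30.1, 26.6 and 31.8 FPKM in the libraries titled KO and 39.7, 36.4 and 37.9 in those titled WT. All libraries titled KO were below all titled WT, with the lowest value in replicate 2. Its log2 fold change was -0.37 (SE 0.0653, edgeR adjusted p = 0.000432) and -0.30 without that replicate (adjusted p = 8.63e-06). Genes of chromosome 1 were lower as a whole in the libraries titled KO, with a median log2 fold change of -0.21 over 885 tested genes and 69.4% of them below 0, while the 20 tested genes nearest to Ipo9 had a median of -0.10. The part of this chromosome-wide difference in the value of Ipo9 was not tested.

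Tnpo3 imports SR splicing factors and CPSF6 and lies on chromosome 6 (29540827 to 29609887, minus strand). It had 10.9, 10.1 and 10.5 FPKM in the libraries titled KO against 12.5, 12 and 12.6 in those titled WT, again without overlap. This was a log2 fold change of -0.23 (SE 0.0542, edgeR adjusted p = 0.00288). Chromosome 6 also had a median below 0 (-0.13 over 750 tested genes), and 3.14% of the exonic bases of Tnpo3 overlapped the opposite-strand gene Irf5, whose reads could not be told apart by the unstranded counting.

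Tnpo1 carries hnRNP A1 and other proteins with a PY nuclear localization signal and lies on chromosome 13 (98839019 to 98926384, minus strand). The libraries titled KO had 21.8, 17.2 and 22 FPKM and those titled WT 24.7, 23.1 and 22.6. Replicate 2 of the libraries titled KO was well below the rest, and the other replicates titled KO were just below the lowest titled WT. Its log2 fold change was -0.21 (SE 0.0799, edgeR adjusted p = 0.0448). Without replicate 2 it was -0.10 (adjusted p = 0.0942), and the call was also lost when any library titled WT was left out (adjusted p up to 0.15).

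Kpnb1 lies on chromosome 11 (97159714 to 97187881, minus strand). It had 98, 90.3 and 96.6 FPKM in the libraries titled KO and 107, 106 and 104 in those titled WT, a narrow gap between groups that did not overlap. The log2 fold change was -0.16 (SE 0.0507, edgeR adjusted p = 0.0206). Leaving out any of the 3 libraries titled WT ended the call (highest adjusted p = 0.0713), and 7.07% of its exonic bases overlapped an antisense gene.

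The 4 other receptors showed no called difference, which does not show that their levels were equal. Ipo7, which imports ribosomal proteins and, together with importin-β, histone H1, had 17.6 to 19.5 FPKM in the libraries titled KO and 17.5 to 18.6 in those titled WT (log2 fold change 0.04, approximate 95% interval -0.06 to 0.15). Its paralog Ipo8 had 5.92 to 7.05 and 6.23 to 6.8 FPKM (0.01, interval -0.12 to 0.14). Ipo4, a carrier of histones H3 and H4, had 12.8 to 14 and 12.3 to 13.2 FPKM (0.06, interval -0.06 to 0.18), but 55.3% of its exonic bases lay also in the same-strand gene Gm49378, so fragments there could be left uncounted. Ipo11, which imports ubiquitin-conjugating enzymes, had 6.84 to 7.18 FPKM against 7.43 to 8.14, and although these ranges did not overlap, its log2 fold change of -0.14 did not pass the test (edgeR adjusted p = 0.0981).

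**Figure D2:**
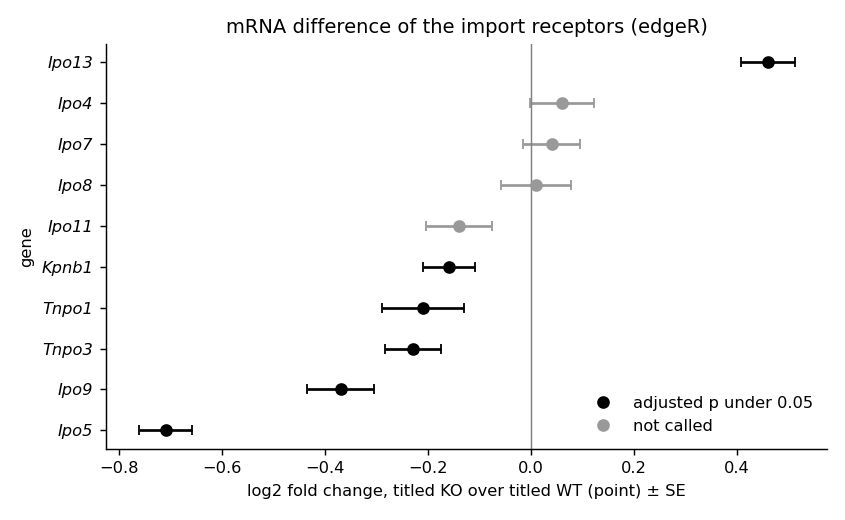
Log2 fold change of each import receptor mRNA between the 3 libraries titled KO and the 3 titled WT (points) with its standard error (bars), from edgeR. Ipo5 at -0.71 and Ipo13 at 0.46 lie farthest from 0 on either side, and Ipo4, Ipo7, Ipo8 and Ipo11, in grey, were not called.

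Around the other members, genes of the same chromosome had medians near 0 or of either sign. Ipo5 and Ipo4 share chromosome 14 with Xpo4, where the median log2 fold change was -0.01 over 485 tested genes, and the 20 tested genes nearest to Ipo5 had a median of 0.19, opposite in sign to Ipo5. The 20 nearest to Ipo13 had a median of -0.01. On chromosome 13 the median was 0.01 over 563 tested genes, with -0.10 around Tnpo1 and 0.17 around Ipo11.

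The partners of the import receptors showed calls in both directions, and their counts are to be read against the 48.7% called over all 14688 genes tested (25.1% higher, 23.6% lower). Of 8 tested exportins and other carriers of the superfamily, Xpot was higher and Ranbp6, Xpo5, Xpo7 and Cse1l were lower in the libraries titled KO, with a median log2 fold change of -0.15. Xpot, the tRNA exportin, rose from 23.3 ± 0.68 to 29.1 ± 1.4 FPKM (SD, n = 3 each, log2 fold change 0.32, edgeR adjusted p = 0.000382). It lies on chromosome 10, where the median log2 fold change was 0.45 over 689 tested genes. The part of this chromosome-wide difference in the value of Xpot was not tested. Xpo5, the exportin of pre-miRNAs, fell from 23.2 ± 0.648 to 19.2 ± 0.66 FPKM (-0.28, edgeR adjusted p = 0.000818). Ranbp6, the closest relative of Ipo5, fell to 4.39 ± 0.223 from 5.23 ± 0.129 FPKM (-0.26, adjusted p = 0.0163), a call lost without the libraries titled KO replicate 1 or WT replicate 3. The call of Xpo7 (-0.20, adjusted p = 0.023) was lost when any of 4 libraries was left out. Ranbp17 had 0 counts in every library and was not tested.

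The importin-α adaptors and snurportin, which hand cargo to importin-β, had 0 of 6 tested genes called by edgeR and 0 by DESeq2, with 1 at an unadjusted p under 0.05. Their median log2 fold change was 0.07, and Kpna4 came nearest to the threshold (0.13, edgeR adjusted p = 0.0588), which it passed without the library titled KO replicate 2 (0.17, adjusted p = 0.00933), as did Kpna3 and Snupn. In the Ran cycle, 3 of 7 tested genes were called, close to the 48.7% over all genes. Rcc1, the exchange factor that loads Ran with GTP in the nucleus, was lower (-0.38, edgeR adjusted p = 0.000221). Rangap1, which triggers GTP hydrolysis in the cytoplasm, was also lower (-0.25, edgeR adjusted p = 0.00199), whereas the pore protein Ranbp2 was higher (0.27, edgeR adjusted p = 0.00917). Ranbp2 lies on chromosome 10, where the median log2 fold change was 0.45 over 689 tested genes, and the part of that difference in its value was not tested. Ran itself was at 265 FPKM in the libraries titled KO and 284 in those titled WT and was not called (adjusted p = 0.186).

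Cargoes of Tnpo3 and Tnpo1 were followed as well, with 5 called in each list, which was no more than the 48.7% over all genes. Among 12 SR proteins and other cargoes of Tnpo3, Srsf2 (-0.32, edgeR adjusted p = 0.000246), Srsf3 (-0.23, adjusted p = 0.00303) and Srsf7 (-0.19, adjusted p = 0.0096) were lower, Srsf9 and Cpsf6 were higher, and 7 were not called. The call of Cpsf6 (0.16, edgeR adjusted p = 0.0287) was lost with upper-quartile factors and without any of 3 libraries. Cpsf6 also lies on chromosome 10, where the median log2 fold change was 0.45 over 689 tested genes. Of 11 PY-NLS cargoes of Tnpo1, Hnrnpa1 fell from 466 ± 13.4 to 332 ± 3.39 FPKM (SD, n = 3 each, log2 fold change -0.49, adjusted p = 2.9e-06), Hnrnpm and Ewsr1 were lower (-0.29 and -0.21), Hnrnpa3 and Pabpn1 were higher (0.21 and 0.32), and 6 were not called. The medians of these lists were -0.12 and -0.10.

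Circular RNAs came from 7 of the 10 genes, where 32.1% of the genes tested in mRNA-seq had a listed circRNA. Tnpo3 had 17, Ipo11 14, Ipo7 9, Ipo8 7, Ipo9 5, Kpnb1 3 and Ipo5 2, while none was listed for Ipo4, Ipo13 or Tnpo1. The number of circRNA reads did not follow the mRNA level. Ipo7 gave 575 reads over the 12 libraries, Tnpo3 408, Ipo11 362, Ipo8 212, Ipo9 135, Kpnb1 40 and Ipo5 25. The mRNAs with the highest FPKM thus had the fewest circRNA reads among the 7 genes. Ipo8 and Ipo11, lowest in FPKM, were in the middle.

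The circRNAs spanned 2 to 17 exons with a spliced length of 239 to 1941 nt (median 513), and 29 had a length divisible by 3. Exon 2 was the most common start. It was the acceptor exon of 16 of the 57 circRNAs and of 55.1% of their 1757 reads, including 7 of the 17 circRNAs of Tnpo3. Kpnb1 and Ipo5 had none that began there, Ipo9 had 1 of 5 and Ipo11 2 of 14. Those 2 of Ipo11 were numbered on a different transcript from its other circRNAs, so the exon 2 counts do not rest on a single numbering of that gene. Ipo7 exons 2 to 4 alone held 391 of the reads. The introns beside the 57 circRNAs had a median length of 2731 bp over 114 values, in which an intron recurs for each circRNA beside it. All 168 introns of their transcripts, each counted once, had a median of 1330 bp. This is a description of these annotations without a test, and such repeats weigh on the first median. The intron before exon 2 of Tnpo3, 20136 bp long, was counted for each of those 7 circRNAs.

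A single circRNA dominated Ipo7. The circle of exons 2 to 4 (chr7:110027071-110031766 in GRCm38, 395 nt spliced) held 391 reads, 68% of all circRNA reads of that gene. Its paralog Ipo8 formed circles from exons of the same numbers, with 398 nt for exons 2 to 4 and 555 nt for exons 2 to 5, against 395 and 552 nt in Ipo7. The printed junctions of exons 2 to 5 matched at 22 of 30 positions between the paralogs, 14 of 15 on the donor side and 8 of 15 on the acceptor side, and those of exons 2 to 4 matched at 19 of 30. The reads were distributed differently, 391 for exons 2 to 4 and 48 for exons 2 to 5 in Ipo7 and 10 and 58 in Ipo8.

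**Figure D3:**
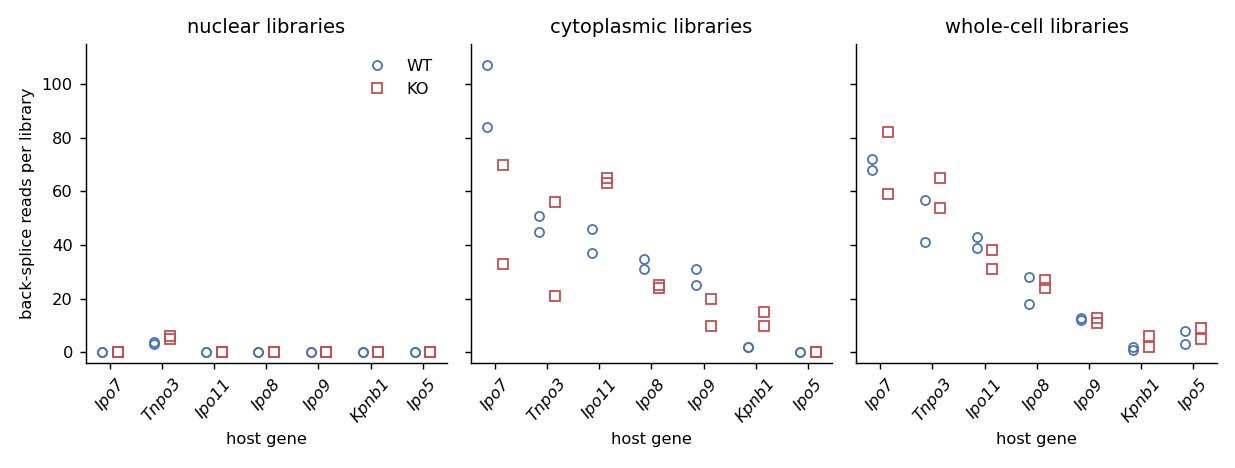
Back-splice reads per library summed over the circRNAs of each host gene, in nuclear, cytoplasmic and whole-cell libraries, with WT as blue circles and KO as red squares. Points at 0 in the nuclear panel mark genes without a listed nuclear circRNA. Kpnb1 stood at 10 and 15 reads in cytoplasmic KO against 2 and 2 in WT, and Ipo11 at 63 and 65 against 37 and 46.

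Few member circRNAs were listed in more than 1 kind of library. Of the 57, 43 were listed in whole-cell, 28 in cytoplasmic and 2 in nuclear libraries. The lists leave out circRNAs below a minimum, with at least 3 reads summed over the 4 nuclear, 5 over the cytoplasmic and 4 over the whole-cell libraries, so an unlisted circRNA may have been present at a few reads. Of the cytoplasmic member circRNAs 53.6% were also listed in whole-cell RNA (49.8% of all cytoplasmic circRNAs), and 34.9% of the whole-cell ones in the cytoplasm (44.9% of all).

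In the nucleus, Tnpo3 alone contributed. Its circRNA of exons 9 to 16 (chr6:29560082-29572693) had 3 and 3 reads in KO and 1 and 2 in WT, and that of exons 2 to 3 (chr6:29588023-29589229) had 3 and 2 against 2 and 2. Neither reached the 10 reads required for a test, where 10.1% of the 651 nuclear circRNAs tested were called. Summed over the gene, Tnpo3 had 6 and 5 nuclear reads in KO and 3 and 4 in WT. The libraries themselves held more reads in KO than in WT. Fold changes were scaled for this, so a change in total circRNA amount between genotypes would not appear in them. The log2 fold change of the sum was -0.34 and did not pass the test (SE 0.663, edgeR adjusted p = 0.794), where 11.3% of the 542 host genes tested were called. No difference was detectable at this depth.

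In the cytoplasm, 13 of the 27 tested member circRNAs were called between KO and WT, 8 higher and 5 lower in KO. The background was 53.5% of all 8917 cytoplasmic circRNAs tested, 30.0% higher and 23.5% lower, so the members' 48.1% was close to it. Reads are given as counted. The cytoplasmic WT libraries were deeper (77818 and 81941 reads in all) than the KO libraries (50629 and 63335), which the fold changes and ratios take into account. Such scaling would also remove a change in total circRNA amount between genotypes, so fold changes are relative to the other circRNAs. The median log2 fold change of the 27 member circRNAs was 0.44, against -0.25 over all tested. Of the 9 calls for which DESeq2 gave an adjusted p, 3 were also called by DESeq2 (Ipo11 exons 25 to 28, Ipo11 exons 2 to 5 and Kpnb1 exons 3 to 10). When each library was left out in turn, the calls of these 3 and of Tnpo3 exons 8 to 11 held in every fit that could still test them. Among them, only Ipo11 exons 25 to 28 had enough reads to be tested in every such fit.

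Ipo11 had the most calls of any member gene in the cytoplasm, with 4 circRNAs higher, 1 lower and 3 not called of 8 tested. The circRNA of its exons 25 to 28 (chr13:106822956-106848336, 428 nt spliced) had 24 and 21 reads in KO and 0 and 1 in WT. Almost every read thus came from KO. The log2 fold change was 5.68 (SE 0.836, edgeR adjusted p = 0.000138), and the ratio of the pooled reads per effective library size was 65.7 (exact 95% interval 11.2 to 2650). Intervals on read ratios cover counting error only, since reads without molecular identifiers need not be separate molecules.

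The Ipo11 circRNA of exons 2 to 5 (chr13:106910200-106925156) had 12 and 5 reads in KO and 0 and 1 in WT, again with the groups apart. Its ratio was 24.8 (interval 3.89 to 1037, edgeR adjusted p = 0.000674). It shares its donor end with the most read Ipo11 circRNA, exons 3 to 4 in the numbering of another transcript (chr13:106910200-106910816), which showed no called difference with 6 and 14 reads in KO and 16 and 20 in WT (log2 fold change -0.32, adjusted p = 0.642). In the opposite direction, the circRNA of Ipo11 exons 3 to 19 had 0 and 1 reads in KO and 6 and 8 in WT (edgeR adjusted p = 0.00777), a call lost without either KO library.

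Tnpo3 had 1 circRNA called higher and 2 lower of 7 tested. That of exons 8 to 11 (chr6:29568854-29575152) had 2 and 12 reads in KO and none in WT (edgeR adjusted p = 0.000775). It was 6.81-fold higher in KO when 3 reads over both WT libraries are taken in place of 0. That value takes the KO reads as counted, without their counting error. The KO libraries differed widely from each other. The circRNA of exons 2 to 3 went the other way, with 0 and 3 reads in KO and 15 and 15 in WT, a ratio of 6.85 in favour of WT (interval 2.13 to 35.1, edgeR adjusted p = 0.00224). Without KO replicate 1 this call was lost (edgeR adjusted p = 0.172). Exons 6 to 8, with 2 and 2 reads against 10 and 10, were also lower in KO (adjusted p = 0.0244), a call lost without either KO library, and exons 2 to 4, the most read Tnpo3 circRNA, had 11 and 32 against 13 and 12 (adjusted p = 0.0907).

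Ipo7 had a circRNA changed in each direction with the same donor. Exons 2 to 5 (chr7:110027071-110037100) had 1 and 2 reads in KO and 15 and 17 in WT, a ratio of 7.31 in favour of WT (interval 2.29 to 37.3, edgeR adjusted p = 0.000954). Exons 3 to 5 (chr7:110029691-110037100) had 8 and 7 reads in KO and 2 and 1 in WT, a ratio of 7.3 in favour of KO (interval 2.06 to 39.3, adjusted p = 0.00171). Each pair of libraries was apart from the other, yet the first call was lost without KO replicate 1 (adjusted p = 0.0567) and the second without WT replicate 2 (adjusted p = 0.105). The dominant circle of exons 2 to 4 had 16 and 51 reads in KO and 84 and 60 in WT and was not called (log2 fold change -0.62, adjusted p = 0.486). The 3 tested Ipo8 circRNAs were not called (adjusted p from 0.114 to 0.921), and exons 2 to 5 had 8 and 7 reads against 11 and 10 (log2 fold change 0.06).

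Both tested circRNAs of Kpnb1 were higher in KO. Exons 3 to 10 (chr11:97173053-97185109) had 9 and 5 reads in KO and 1 and 0 in WT, a ratio of 20.4 (interval 3.11 to 864, edgeR adjusted p = 0.000954), and exons 3 to 9 had 6 and 5 against 1 and 2 (ratio 5.35, interval 1.41 to 29.9, adjusted p = 0.0104). The second call was lost in the 2 leave-one-out fits that could test it. In Ipo9, exons 15 to 16 had 1 and 3 reads in KO and 11 and 10 in WT (ratio 3.6 in favour of WT, interval 1.21 to 14.4, adjusted p = 0.0182), which was lost without either KO library, while exons 6 to 10 and exons 2 to 4 were not called.

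**Figure D4:**
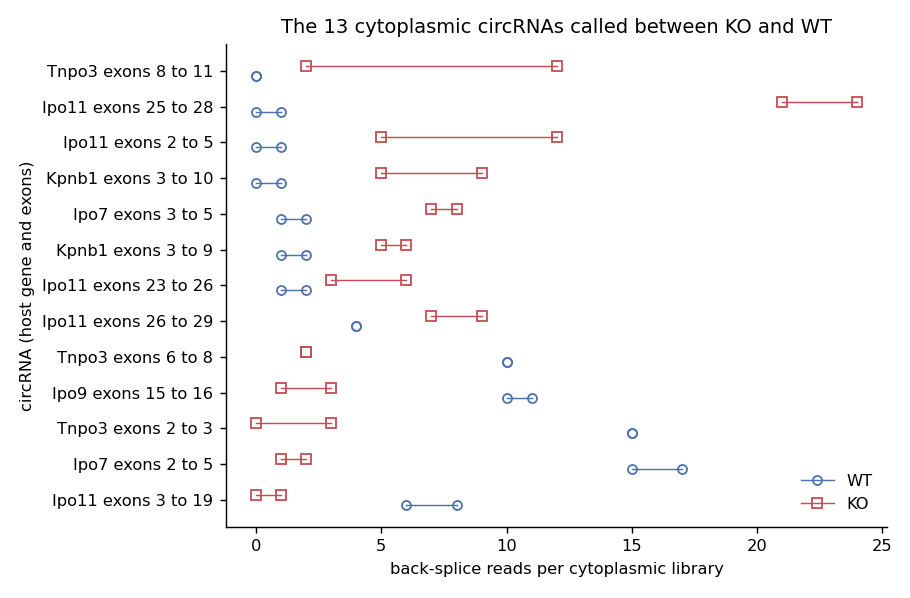
Back-splice reads in the 2 KO (red squares) and 2 WT (blue circles) cytoplasmic libraries for the 13 member circRNAs called by edgeR, named by host gene and exons and ordered by log2 fold change, with lines joining the libraries of a genotype. Ipo11 exons 25 to 28 had 24 and 21 reads in KO against 0 and 1 in WT, and Ipo7 exons 2 to 5 had 1 and 2 against 15 and 17.

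When the reads were summed over each of the 6 host genes tested in the cytoplasm, Kpnb1 and Ipo11 were called (33.3%), both higher in KO, against 46.0% of all 3615 host genes, 25.1% of them higher and 20.9% lower. Kpnb1 had 15 and 10 reads in KO and 2 and 2 in WT (8.17-fold, log2 fold change 3.03, SE 0.511, edgeR adjusted p = 0.00166). Ipo11 had 65 and 63 reads against 37 and 46 (2.15-fold, 1.11, SE 0.331, adjusted p = 0.0202). The Kpnb1 call was lost without WT replicate 2, and the Ipo11 call without either WT library. Without WT replicate 2 no host gene at all was called, so that loss was not particular to Kpnb1 or Ipo11. DESeq2 called Kpnb1 (adjusted p = 0.0496) and not Ipo11 (0.197). Ipo7 had 33 and 70 reads in KO and 107 and 84 in WT, and Tnpo3 21 and 56 against 51 and 45, neither of them called.

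Kpnb1 was thus the gene in which the mRNA and the circRNAs were called in opposite directions by title, with FPKM 1.11-fold lower as mRNA and circRNA reads higher in cytoplasmic KO. The label conflict applies to the mRNA libraries, and the difference between the mRNA and circRNA changes was not tested.

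In whole-cell RNA, 0 of 34 tested member circRNAs were called by edgeR and 0 by DESeq2, as was 0% of all 8903 circRNAs tested by edgeR. At an unadjusted p under 0.05 there were 12 by edgeR and 2 by DESeq2. The smallest adjusted p among members was 0.058, shared by Tnpo3 exons 8 to 11 (6 and 11 reads in KO, 1 and 1 in WT), Ipo5 exons 4 to 6 (5 and 8 against 0 and 1), Ipo11 exons 12 to 27 (4 and 6 against 1 and 0) and Ipo7 exons 2 to 5 (0 and 1 against 4 and 8). Ipo5, whose circRNAs were listed in whole-cell RNA alone, had its other circle, exons 3 to 6, at 0 and 1 reads in KO and 3 and 7 in WT (adjusted p = 0.0673), the reverse of the circle that begins an exon later. Summed per gene, 0 of 7 host genes were called by edgeR and 0 by DESeq2, with 0 at an unadjusted p under 0.05 by either, against 6.80% of all host genes called by edgeR. The 2 Ipo5 circles gave 5 and 9 reads in KO and 3 and 8 in WT.

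Of the 14 member circRNAs tested in both cytoplasmic and whole-cell RNA, 8 had the same sign of the KO to WT difference and 6 the opposite sign. Tnpo3 exons 8 to 11 (higher in KO in the cytoplasm with no WT reads, log2 fold change 2.98 in whole cells) and Ipo7 exons 2 to 5 (-2.79 and -3.26) went the same way in both. Ipo8 exons 11 to 16 had 4 and 7 reads in KO and 13 and 15 in WT in the cytoplasm, and 4 and 4 against 2 and 0 in whole cells, and the difference between these effects did not pass the test (adjusted p = 0.104).

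The genotype effect differed between cytoplasm and whole cell for 3 of the 15 member circRNAs listed in both, a share close to that over all circRNAs listed in both: among all 4803 such circRNAs 21.2% were called. Over the 47 member circRNAs tested, listed in both or not, the 3 stood against 7.41% of 13729. Ipo11 exons 25 to 28 had 2 and 5 whole-cell reads in KO and 7 and 5 in WT, so its groups overlapped there (interaction 6.32 on the log2 scale, SE 1.1, edgeR adjusted p = 0.000797). Ipo11 exons 2 to 5 had 6 and 6 whole-cell reads in KO and 6 and 3 in WT (interaction 3.75, SE 1.16, adjusted p = 0.0438). Tnpo3 exons 2 to 3 had 4 and 3 whole-cell reads in KO and 1 and 0 in WT against 0 and 3 and 15 and 15 in the cytoplasm (interaction -5.33, SE 1.27, adjusted p = 0.00733). Leaving out each library in turn gave interactions of 5.25 to 8.06 for Ipo11 exons 25 to 28 and 2.70 to 5.51 for Ipo11 exons 2 to 5. For Tnpo3 exons 2 to 3 they were -9.14 to -4.26. Each of the 3 calls was lost without either whole-cell KO library. In those fits no circRNA of any gene was called, so this loss was not particular to the 3. The call of Ipo11 exons 2 to 5 was also lost without cytoplasmic KO replicate 1, whole-cell WT replicate 1 or either cytoplasmic WT library. Between nucleus and cytoplasm 0 of 27 member circRNAs were called by edgeR and 0 by DESeq2, with 0 and 1 at an unadjusted p under 0.05 and 0% of all 9266 called by edgeR, and just 1 of the 27 was listed in both fractions.

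**Figure D5:**
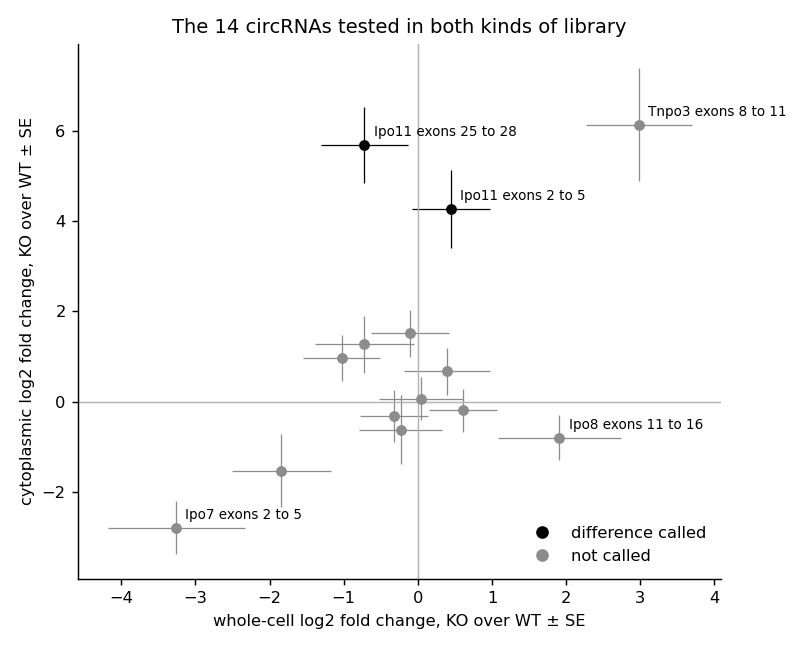
Cytoplasmic against whole-cell log2 fold change between KO and WT for the 14 member circRNAs tested in both kinds of library, with standard errors as bars. The Ipo11 circRNAs of exons 25 to 28 and 2 to 5, in black, had a called difference between the fractions, and Ipo7 exons 2 to 5 at -2.79 and -3.26 and Tnpo3 exons 8 to 11 lay on the same side of 0 in both. Tnpo3 exons 2 to 3 is not drawn, since it had too few whole-cell reads for that test.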

How the data were processed

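The deposited mRNA-seq files hold raw fragment counts per gene, made by the authors with HISAT2 and featureCounts 2.0.0, without strand, on GRCm38/mm10 with GENCODE genes. The deposited circRNA files hold counts of back-splice reads per circRNA, called by the authors with find_circ and listed separately for nuclear, cytoplasmic and whole-cell libraries. Groups were taken from the sample titles. FPKM were computed here from the counts, the library totals and the exonic length in the files.

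KO and WT were compared with edgeR 4.0.16 (R 4.3.3) by the quasi-likelihood test with TMM factors over all features, with filterByExpr for genes and at least 10 summed reads for circRNAs, and p-values were adjusted by the Benjamini-Hochberg method at 0.05. The difference of the genotype effect between fractions was an interaction term, in which a circRNA not listed in a fraction was given 0 reads. DESeq2 1.42.0, upper-quartile factors, library totals, no filter, a replicate block and leaving out each library were the alternatives. Exon structure and junction bases came from the GRCm38 genome and its annotation. Read ratios carry exact conditional 95% intervals, which cover counting error alone. Where a group had no reads, a floor of 3 reads took their place, and the counting error of the other group was left out. Scripts were tested on simulated data.

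The members and the gene lists were chosen with earlier results of these data known. Every member is named. In the other lists up to 4 genes each with the lowest p were described in full, and circRNAs were named by lowest adjusted p or most reads. Genes and circRNAs named beyond these rules (for example Ran, Srsf9 and Hnrnpa3, and the remaining cytoplasmic calls) were chosen after their values were seen.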

Additional observations from a re-analysis of the deposited data

Results flagged for a closer look

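The KO to WT effect on 3 member circRNAs differed between cytoplasmic and whole-cell libraries by the interaction term. For Ipo11 exons 25 to 28 the difference was 6.32 on the log2 scale (SE 1.1, edgeR adjusted p = 0.000797, DESeq2 adjusted p = 0.0179), with KO above WT in the cytoplasm and overlapping reads in whole cells. For Ipo11 exons 2 to 5 it was 3.75 (SE 1.16, edgeR adjusted p = 0.0438, DESeq2 adjusted p = 0.193). For Tnpo3 exons 2 to 3 it was -5.33 (SE 1.27, edgeR adjusted p = 0.00733, DESeq2 adjusted p = 0.113), with WT above KO in the cytoplasm and the reverse in whole cells, where the reads were 4 and 3 in KO and 1 and 0 in WT.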

How the results depend on the processing

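The 6 calls among the 10 mRNAs stayed between 5 and 6 under other scalings, filters and DESeq2, and between 4 and 6 when a library was left out. Ipo8, never called, turned negative with upper-quartile factors (-0.02) and ranged from -0.03 to 0.08 over the fits that left out a library, among them -0.00484 without the library titled KO replicate 3, -0.03 without KO replicate 1 and -0.02 without WT replicate 3.

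The circRNA counts depended more on the method. The 13 cytoplasmic calls became 3 with DESeq2, which over all cytoplasmic circRNAs called 879 where edgeR called 4768, and 4 to 9 without a library. In whole cells the 0 calls became 7 with library totals (2003 over all circRNAs) and 0 to 1 without a library. The 2 cytoplasmic host genes became 1 with DESeq2, which over all host genes called 216 where edgeR called 1662. The 3 differences between cytoplasm and whole cell became 1 with DESeq2 (150 over all circRNAs, against 1018 with edgeR). Both counts were lower in some fits without a library, including fits in which no feature of any gene was called. The cause of these changes was not tested.

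Replicate numbers did not pair the libraries, since deviations of same-numbered libraries correlated between -0.0889 and 0.0615. With a replicate block, the whole-cell calls rose from 0 to 7 (2054 over all circRNAs), and the cytoplasmic calls were 12 (4445 over all circRNAs). The 2 cytoplasmic host gene calls became 0, as did the calls over all 3615 host genes. The low read number of single circRNAs and the depth of the nuclear libraries limit these comparisons.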
